A study of Mus musculus with 56 samples.

Results

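Fat tissue answers hormones and metabolites through cell-surface receptors, and 9 of these receptor genes were followed in mouse visceral adipose tissue (VAT): Adrb1, Adrb3, Adra2a, Hcar1, Hcar2, Ptger3, Npr1, Npr3 and Ffar2. They were taken by symbol from the 25939 Ensembl genes of the deposited VAT table, all 9 were found, and all 9 passed the filter on low values. The study asked how inverted feeding moves daily rhythms of tissues. RNA came from VAT of 56 female C57BL/6J mice aged 9 weeks, 4 mice at each of 7 time points (ZT0, ZT4, ZT8, ZT12, ZT16, ZT20 and ZT24, with lights on at ZT0) under each of 2 regimens. All mice lived in groups in a pathogen-free facility on normal chow and a 12-h light, 12-h dark cycle, with free food for a first 7 days. For the next 7 days food was restricted to the day (daytime-restricted feeding, DRF) or to the night (nighttime-restricted feeding, NRF, the active phase of mice). Both regimens thus limited food to 12 h, no group had free food throughout, and ZT0 and ZT24 were different mice at the same hour.

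These receptors sit on the adipocyte surface and act largely through cyclic nucleotides. Beta-adrenergic receptors couple to Gs, raise cAMP and drive lipolysis, the release of fatty acids from stored triglyceride. Receptors for lactate (Hcar1), ketone bodies (Hcar2) and prostaglandin E2 (Ptger3) and the alpha-2A adrenergic receptor (Adra2a) couple to Gi, lower cAMP and restrain lipolysis. The natriuretic peptide receptor Npr1 makes cGMP, and Npr3 removes its ligands.

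Adrb3, Hcar1 and Hcar2 fell with food by 1.4 to 1.77 on the log2 scale under each regimen, and their daily profiles were turned over under DRF. Ptger3 rose with food under both regimens, although the call under DRF was lost without replicate 4. Ffar2 fell with food under NRF and had another profile under DRF. The natriuretic peptide receptors Npr1 and Npr3 did not pass the test for food but differed in mean level. Group means of Npr3 were higher and those of Npr1 lower under DRF at each of the 7 time points.

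Levels are given as read counts scaled to library size (CPM) that were recovered from the deposited values, and tests were made on log2(CPM + 1). The libraries held 30525669 to 40436941 recovered reads on genes, and the 9 receptors held from 22 reads (Adra2a in 1 mouse) to 37363 reads (Npr3 in 1 mouse) per library. Adipocyte markers identified the tissue, with Adipoq at a mean of 2766 CPM and Plin1 at 1655 CPM. A pair of libraries stood apart on the second principal component, DRF ZT8 replicate 1 and DRF ZT0 replicate 4. Their summed markers of reproductive tract epithelium (Epcam, Cdh1, Krt7 and Wfdc2) were 320.1 and 849.8 CPM, against a median of 18.6 and a highest value of 45.2 CPM in the other 54 libraries. In bulk tissue, fewer cells of a type and less RNA per cell cannot be told apart.

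Compared per kilobase of exon, Adrb3 had the highest mean of the 9, with 101 ± 52.9 CPM per kb under NRF and 93.9 ± 39.2 under DRF (mean ± SD, n = 28 mice each, time points together). Ptger3 followed at 56.1 ± 21.5 and 62.4 ± 23.1 CPM per kb, a gap within the SD of Adrb3. In fed mice the order of these genes was the reverse. Adrb3 (3376 bases) then had a mean of 173 CPM under NRF and 178 under DRF, and Ptger3 (5688 bases) 428 and 487 CPM. Npr3 and Hcar1 did not separate under NRF (29.3 ± 12.6 and 30.7 ± 17.7 CPM per kb). Under DRF Npr3 had 47.6 ± 18.8 and Hcar1 32.0 ± 17.4, a gap that was also within their spread. Npr1 (17.4 ± 1.73 under NRF) and Hcar2 (16.5 ± 11.6) did not differ beyond their spread either. Ffar2 stood at 9.45 ± 7.13 and 10.1 ± 4.99 CPM per kb. Adrb1 (1.04 ± 0.331 under NRF) and Adra2a (0.456 ± 0.107) were the lowest. By this measure Adrb3 ranked 421 and Adra2a 14440 among 19737 genes tested.

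**Figure D1:**
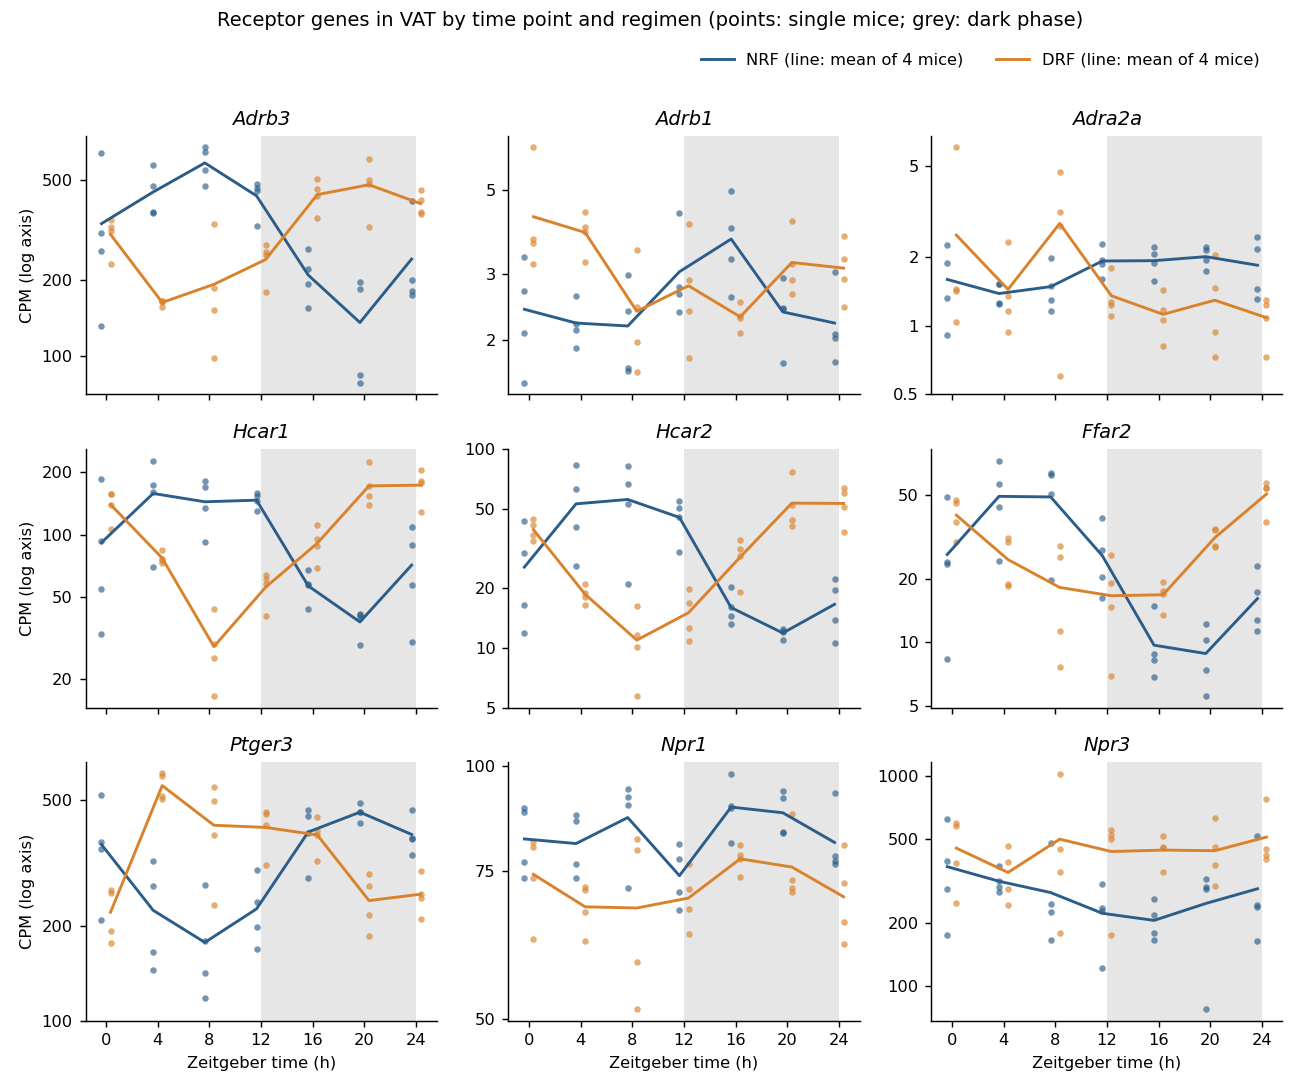
CPM (log axis) of the 9 receptor genes against zeitgeber time, with single mice as points, the mean of 4 mice as a line, NRF in blue, DRF in orange and the dark phase in grey. The lines of Adrb3, Hcar1, Hcar2 and Ptger3 cross over, and the Npr3 line of DRF lies above that of NRF at all 7 time points.

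Adrb3, the Gs-coupled receptor through which noradrenaline drives lipolysis in rodent fat, lies on chromosome 8 (ENSMUSG00000031489, chr8:27225776-27250616, minus strand, GRCm38). Under NRF the fasted mice at ZT8 had 548, 673, 644 and 472 CPM, and the fed mice at ZT20 had 185, 78.3, 83.8 and 196 CPM. Under DRF the fed mice at ZT8 had 98.6, 333, 153 and 186 CPM, and the fasted mice at ZT20 had 604, 501, 326 and 482 CPM. At both hours the regimens did not overlap, and they were on opposite sides. The difference DRF minus NRF was -1.72 ± 0.31 (log2, SE) at ZT8 and 1.9 ± 0.31 at ZT20, with adjusted p = 5.61e-05 and 1.36e-05.

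Food was present in the dark under NRF and in the light under DRF. The food effect was taken over ZT4, ZT8, ZT16 and ZT20 as fed minus fasted, averaged over both regimens, and the light effect as dark minus light over the same mice. By its construction the light effect is proportional to the difference between the food responses of NRF and DRF, so an effect of light or clock time and a food response that differs by regimen cannot be told apart. For Adrb3 the 8 fasted NRF mice ranged from 368 to 673 CPM with a median of 511, and the 8 fed ones from 78.3 to 267 with a median of 189. The 8 fasted DRF mice ranged from 326 to 604 CPM with a median of 470.2, and the 8 fed ones from 98.6 to 333 with a median of 165. Groups did not overlap under NRF, and under DRF 1 fed mouse lay above the lowest fasted one. The lowest fed DRF values of Adrb3, Hcar1, Hcar2 and Ffar2 all belonged to DRF ZT8 replicate 1, one of the pair of libraries that stood apart. Without that pair the differences at ZT8 were smaller, at -1.45 for Adrb3, -2.09 for Hcar1, -1.92 for Hcar2 and -1.1 for Ffar2 (against -1.43), and the food effects were -1.46, -1.45, -1.52 and -1.14, all past the threshold. The food effect on Adrb3 was -1.53 ± 0.155 (log2, SE, adjusted p = 6.83e-11) and the light effect -0.12 ± 0.155 (adjusted p = 0.645, 95% interval -0.43 to 0.19).

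Of all genes tested, 32.5% had a food effect past an adjusted p of 0.05, 17.2% a light effect and 7.47% both. Among the receptors, 6 of 9 had a food effect and 1 of 9, Ffar2, had both. Genes lower in fed VAT were 15.8% of all and 4 of the 9 receptors, and genes higher in fed VAT were 16.7% of all and 2 of the 9. Within a regimen, fed minus fasted passed for 30.9% of all genes under NRF and 24.9% under DRF, and for 5 and 4 of the receptors. Fed and fasted mice did not overlap for 4 of the 9 under NRF (5.88% of all genes) and for 0 of the 9 under DRF (3.77%), so for none under both (0.806%).

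Hcar1 and Hcar2 are neighbours on the minus strand of chromosome 5 (ENSMUSG00000049241, chr5:123876736-123880020 and ENSMUSG00000045502, chr5:123863570-123865499), with 11236 bases between them. Hcar1 binds lactate and Hcar2 binds beta-hydroxybutyrate and niacin, and both couple to Gi. Their transcripts share no exact run longer than 18 bases. Under NRF, Hcar1 stood at 181, 134, 91.9 and 169 CPM in the 4 mice of ZT8 and at 41.5, 29.3, 41.0 and 39.6 CPM in those of ZT20. Under DRF the order was the opposite, with 16.7, 43.8, 25.3 and 29.6 CPM at ZT8 and 153, 222, 139 and 171 CPM at ZT20. No mouse of one regimen reached the range of the other at either hour. Over the 8 fed and 8 fasted mice, Hcar1 ranged from 29.3 to 67.4 and from 70.0 to 227 CPM under NRF, without overlap. Under DRF the ranges were 16.7 to 83.7 and 68.9 to 222 CPM, and 4 of the 8 fed mice lay above the lowest fasted one. The food effect on Hcar1 was -1.51 ± 0.165 (adjusted p = 4.27e-10), and the light effect was -0.10 (adjusted p = 0.716, 95% interval -0.44 to 0.23).

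Hcar2 also fell with food, at a lower level. Fasted NRF mice had 20.9 to 82.6 CPM with a median of 57.9 and fed NRF mice 11.0 to 20.1 with a median of 12.8 (n = 8 each), without overlap. Fasted DRF mice had 19.1 to 76.3 CPM with a median of 37.8, and fed DRF mice had 5.73 to 20.9 with a median of 16.3. A single fed DRF mouse was above the lowest fasted one. Its food effect was -1.58 ± 0.162 (adjusted p = 8.72e-11) and its light effect -0.19 (adjusted p = 0.463, 95% interval -0.51 to 0.14). Over the 14 group means of log2(CPM + 1), Hcar1 and Hcar2 had a Pearson r of 0.98, which describes group means that share libraries and is given without a test.

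For the Hcar pair the regimens were farthest apart at ZT8 and ZT20. At ZT20, DRF minus NRF was 2.14 ± 0.329 for Hcar1 (adjusted p = 5.75e-06) and 2.04 ± 0.324 for Hcar2 (adjusted p = 9.16e-06). At ZT8 the differences were -2.31 and -2.17 (adjusted p = 1.35e-06 and 3.06e-06). Aligned to the start of food access, Hcar1 had 156 ± 31.7 CPM under DRF (n = 8) and 146 ± 12.5 under NRF (n = 4) at the moment food was given, and Hcar2 had 46.2 ± 10.9 and 45.2 ± 10.7. At 16 h after food was given, Hcar2 was 28.6 ± 6.73 CPM under DRF and 52.9 ± 25 under NRF (n = 4 each), and for Hcar1 the values were 90.8 ± 17.3 and 158 ± 65.3. The mice overlapped for both genes, and these gaps, near 1 SD of the NRF mice, were not tested.

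Ffar2, a receptor for acetate and other short-chain fatty acids (ENSMUSG00000051314, chr7:30818348-30823775, minus strand), also fell with food under NRF. Fed NRF mice had 5.56 to 14.8 CPM with a median of 8.50 and fasted NRF mice 19.6 to 72.8 with a median of 53.2 (n = 8 each), without overlap. Under DRF the fed mice had 7.63 to 31.4 CPM with a median of 22.1, and the fasted mice had 13.5 to 34.3 with a median of 23.8. These DRF groups overlapped almost throughout. Fed minus fasted was -2.22 ± 0.274 under NRF (adjusted p = 1.61e-08) and -0.21 ± 0.274 under DRF (adjusted p = 0.627, 95% interval -0.77 to 0.34). The light effect, which is also the test of the difference between these responses, was -1.01 ± 0.194 (adjusted p = 0.000218). Ffar2 was the only one of the 9 receptors past the threshold in that test.

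At ZT0 the regimens of Ffar2 overlapped, with 47.2, 46.0, 37.4 and 29.8 CPM under DRF and 48.6, 23.4, 8.30 and 23.97 under NRF, and the difference of 0.81 did not pass (adjusted p = 0.154). At ZT24, the same hour in other mice, it was 1.62 (adjusted p = 0.00277). There, after a night without food, DRF mice had 53.8, 37.2, 57.1 and 53.8 CPM, and NRF mice, after a night with food, had 23.0, 17.3, 11.3 and 12.7 CPM. At ZT16 the DRF mice, then 4 h past the end of food access, had 13.5, 19.2, 17.5 and 16.9 CPM. The NRF mice at the matching hour, ZT4, had 43.7, 24.2, 72.8 and 56.1 CPM. Thus 16 h after food was given the DRF mean was 16.8 ± 2.41 CPM and the NRF mean 49.2 ± 20.5 (n = 4 each), without overlap. At 4 h after food was given the order was the opposite, with 24.6 ± 6.88 CPM under DRF and 9.67 ± 3.54 under NRF, and at 8 h the values were 18.2 ± 10.2 and 8.83 ± 2.94.

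Upstream windows from RefSeq (GRCm38.p6) were matched by symbol for 7 of the 9 receptors, with 4 starts for Ffar2, and not for Adrb3 and Hcar2. In the 250 bases before each of these 10 starts, both strands were searched for an E-box (CACGTG), a D-box (TTATGNAA), a Rev-Erb and ROR element (TAGGTCA), a cAMP response element (TGACGTCA), an NR4A element (AAAGGTCA) and a FOXO element (GTAAACA). An E-box was found in Adra2a and in the most upstream Ffar2 window, beginning 102 bases before the start, and 6.02% of all 32851 windows hold one. None of the other motifs was found in the 10 windows, and 1.34% to 3.17% of all windows hold each of them. The windows of Ffar2, Hcar1 and Ptger3 are printed because these genes moved with food in different ways, with the E-box letters in capitals (chr7:30823776-30824025, minus strand, chr5:123880004-123880253, minus strand, and chr3:157566626-157566875, plus strand). A match is only a match of letters.
Ffar2: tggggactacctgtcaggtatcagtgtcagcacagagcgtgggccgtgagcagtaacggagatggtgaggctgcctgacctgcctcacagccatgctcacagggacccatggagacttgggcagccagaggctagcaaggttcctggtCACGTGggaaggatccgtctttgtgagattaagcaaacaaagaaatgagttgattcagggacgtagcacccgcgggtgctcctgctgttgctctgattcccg
Hcar1: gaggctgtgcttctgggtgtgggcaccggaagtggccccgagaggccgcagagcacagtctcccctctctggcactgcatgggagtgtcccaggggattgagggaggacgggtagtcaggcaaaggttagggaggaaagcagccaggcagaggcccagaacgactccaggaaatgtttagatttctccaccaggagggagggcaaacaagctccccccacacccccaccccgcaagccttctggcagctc
Ptger3: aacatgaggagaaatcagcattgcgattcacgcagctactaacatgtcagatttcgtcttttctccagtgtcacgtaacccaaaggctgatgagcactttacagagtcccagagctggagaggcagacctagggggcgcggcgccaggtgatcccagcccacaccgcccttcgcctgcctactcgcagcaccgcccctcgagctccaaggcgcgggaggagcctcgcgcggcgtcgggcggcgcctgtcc

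Ptger3 encodes the EP3 receptor for prostaglandin E2, a Gi-coupled brake on lipolysis (ENSMUSG00000040016, chr3:157566892-157645888, plus strand). Of the 2 receptors that rose with food, Ptger3 and Adra2a, it had the larger effect. NRF mice had 179.7, 118, 269.8 and 142 CPM at ZT8, when fasted, and 460.4, 490.0, 425 and 459 CPM at ZT20, when fed. DRF mice had 504, 515, 609 and 598 CPM at ZT4, when fed, and 216, 268, 293 and 185 CPM at ZT20, when fasted. The groups did not overlap in either regimen at these hours, although over the 8 fed and 8 fasted mice they did (283 to 490.0 and 118 to 320.0 CPM under NRF, 233 to 609 and 185 to 443 under DRF). The food effect was 0.89 ± 0.122 (adjusted p = 7.51e-08) and the light effect 0.26 ± 0.122 (adjusted p = 0.135, 95% interval 0.02 to 0.51 without adjustment). Fed DRF mice included the library with the lowest fed value, DRF ZT8 replicate 1 at 233 CPM, which is one of the pair that stood apart. Without that pair the food effect was 0.96 (adjusted p = 4.37e-09). Within regimens, fed minus fasted was 1.15 under NRF (adjusted p = 8.4e-07) and 0.63 under DRF (adjusted p = 0.00482), and the DRF call was lost without replicate 4 (0.51, adjusted p = 0.0719). At 16 h after food was given Ptger3 was 388 ± 51.0 CPM under DRF and 224 ± 83.4 under NRF (n = 4 each).

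Hour by hour, the receptors that passed the test of DRF minus NRF numbered 1 of 9 at ZT0 (Adrb1), 5 at ZT4, 6 at ZT8, 4 at ZT12, 1 at ZT16 (Adrb3), 5 at ZT20 and 3 at ZT24. The shares of all genes at these hours were 14.7%, 27.2%, 22.6%, 22%, 14%, 18.5% and 16.2%. The mice of the regimens did not overlap for 0 receptors at ZT0, 5 at ZT4, 3 at ZT8, 4 at ZT12, 6 at ZT16, 5 at ZT20 and 5 at ZT24, where the shares of all genes were 12.1%, 31.1%, 14.5%, 27.3%, 24.1%, 24.9% and 19.5%. Adrb3, Hcar1, Hcar2, Ptger3 and Ffar2 were the 5 of ZT20. At ZT0, when DRF mice had just been given food and NRF mice had just lost it, only Adrb1 passed (0.61 ± 0.186, adjusted p = 0.0203), at 3.71, 6.51, 3.62 and 3.18 CPM under DRF and 2.70, 2.08, 3.33 and 1.54 under NRF. That call was lost without replicate 2 or 4 (adjusted p = 0.243 and 0.0873), and the call for Adrb3 at ZT16 likewise (adjusted p = 0.0809 and 0.132). The call for Adrb3 at ZT12 (-0.84, adjusted p = 0.0445) was lost in 6 of 11 alternatives, on the deposited values, without each of the 4 replicate numbers and with no filter on low values (adjusted p 0.0582 to 0.149). Calls were also lost for Hcar1 at ZT4 (deposited values, without replicate 3 or 4) and at ZT24 (without replicate 4), for Ffar2 at ZT8 (without replicate 1 or 4) and for Ptger3 at ZT12 (without replicate 1).

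**Figure D2:**
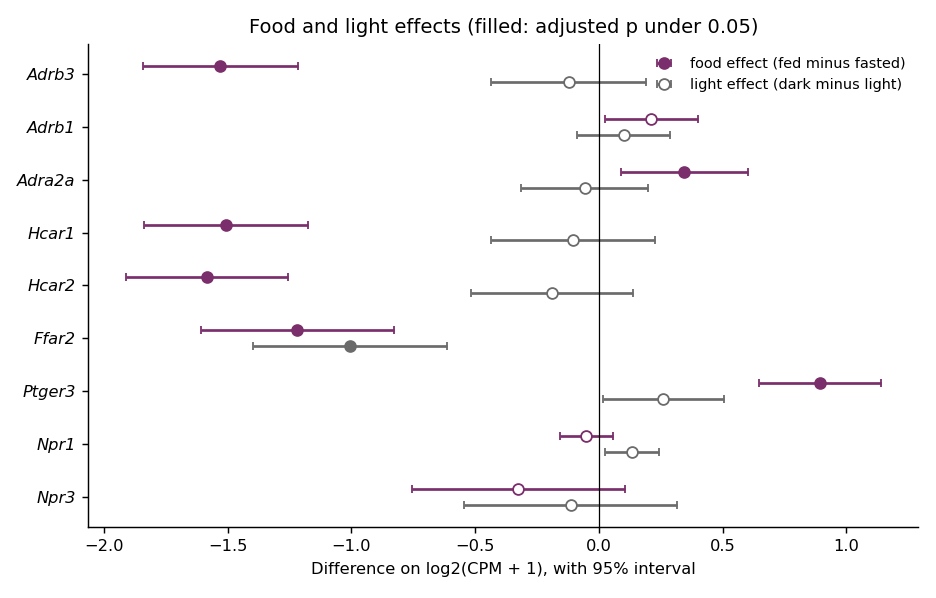
Food effect (purple, fed minus fasted) and light effect (grey, dark minus light) of each receptor gene on log2(CPM + 1), with 95% intervals from limma; filled points have an adjusted p under 0.05. Adrb3, Hcar1, Hcar2 and Ffar2 lie left of 0 for food, Ptger3 and Adra2a right of it, and Ffar2 alone has a filled light effect.

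A 24-h rhythm was tested by combining JTK_CYCLE and Lomb-Scargle within each regimen. The same 5 receptors, Adrb3, Hcar1, Hcar2, Ffar2 and Ptger3, passed under both regimens, although the Ptger3 call under DRF was lost in 5 of 13 alternatives. Of all genes, 35% passed under NRF, 21.1% under DRF and 13.4% under both. Adrb3 peaked at ZT7.47 ± 0.43 under NRF and at ZT19.0 ± 0.53 under DRF (fitted peak ± SE). Hcar1 moved from ZT7.60 ± 0.49 to ZT21.2 ± 0.44, and Hcar2 from ZT7.64 ± 0.42 to ZT21.0 ± 0.43. Ptger3 peaked at ZT19.8 ± 0.53 under NRF and at ZT9.00 ± 0.79 under DRF. In clock time these 4 genes were phase inverted, with shifts of 11.5 ± 0.68, 10.4 ± 0.66, 10.6 ± 0.60 and 10.8 ± 0.95 h.

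Ffar2 had the smallest fitted shift of the 5. Its peak lay at ZT6.42 ± 0.41 under NRF and at ZT23.4 ± 0.76 under DRF, 7.02 ± 0.87 h apart. Genes rhythmic under both regimens numbered 2650, and 96.6% of them had a shift past the threshold, with a median size of 10.2 h and quartiles of 8.52 and 11.2 h. A shift of 6 to 8 h was found in 10.2% of them and one of at least 8 h in 79.3%. Whether the shift of Ffar2 differed from those of the other receptors was not tested.

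Fitted amplitudes on log2(CPM + 1) under NRF and DRF were 1.03 and 0.84 for Adrb3, 1.02 and 1.21 for Hcar1, 1.12 and 1.15 for Hcar2, 0.75 and 0.52 for Ptger3, and 1.29 and 0.79 for Ffar2. None of the 5 differences passed the threshold. The widest was that of Ffar2, -0.50 ± 0.212 (adjusted p = 0.239, 95% interval -0.93 to -0.08 without adjustment). Of the 2650 genes, 3.28% had an amplitude difference.

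The rhythm of Ptger3 under DRF was the least stable of the 10 calls. It had an adjusted p of 0.0158, and over 13 alternative settings this ranged from 0.000324 to 0.55. The call was lost in 5 of them, on the deposited values (0.0757), without replicate 2, 3 or 4 (0.0704, 0.205 and 0.55) and without ZT24 (0.11). Under DRF Ptger3 also had a 12-h component (adjusted p = 0.0374, size 0.40 on log2(CPM + 1)), a call held by 1 of 9 receptors and 1.89% of all genes (under NRF by 0 of 9 and 0.0456%), with group means of 221, 557, 417, 410.3, 388, 241 and 252 CPM from ZT0 to ZT24. The 4 means from ZT4 to ZT16 were all above those of ZT0, ZT20 and ZT24. The 12-h call was lost when any single replicate number was left out (adjusted p 0.109 to 0.201), and it was also lost without the ZT24 libraries (adjusted p = 0.0577).

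**Figure D3:**
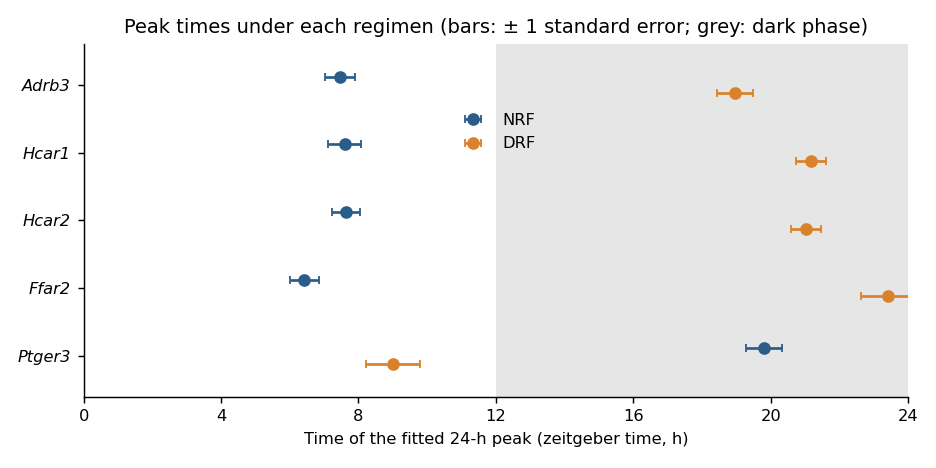
Fitted time of the 24-h peak (zeitgeber time in h, ± 1 standard error) of the 5 receptors rhythmic under both regimens, NRF in blue and DRF in orange. Adrb3, Hcar1, Hcar2 and Ffar2 peaked in the light under NRF and in the dark under DRF, and Ptger3 the other way round.

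The rhythms differed between regimens for 6 of the 9 receptors in limma, against 46.6% of all genes. These were the same 5 and Adrb1, with adjusted p = 0.000526 for Adrb1, a Gs-coupled catecholamine receptor that is better known from the heart (ENSMUSG00000035283, chr19:56722199-56733113, plus strand). Adrb1 was low, from 1.54 to 6.51 CPM. At ZT4 the 4 DRF mice had 4.37, 3.98, 3.23 and 3.88 CPM and the NRF mice 2.21, 2.62, 1.91 and 2.13. At ZT16 the NRF mice had the higher values, 4.98, 3.97, 3.29 and 2.61 CPM, against 2.32, 2.52, 2.29 and 2.09. Both of these comparisons were without overlap, and DRF minus NRF was 0.60 ± 0.186 at ZT4 (adjusted p = 0.014) and -0.49 ± 0.186 at ZT16 (adjusted p = 0.0695). The ZT4 call was lost without replicate 1, 3 or 4 (adjusted p = 0.0541, 0.0693 and 0.0618). ZT4 under DRF and ZT16 under NRF are both 4 h after food was given, with means of 3.87 ± 0.474 and 3.71 ± 1.01 CPM. Neither regimen gave Adrb1 a rhythm by the combined test (adjusted p = 0.289 and 0.262), while limma's cosine test gave adjusted p = 0.0228 under NRF and 0.0131 under DRF. The food effect of Adrb1 over the 8 fed and 8 fasted mice of each regimen was 0.21 ± 0.093 (adjusted p = 0.0769). It passed without the libraries that stood apart (0.24, adjusted p = 0.0371) and without replicate 2 (0.29, adjusted p = 0.0272).

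Adra2a, the Gi-coupled alpha-2A receptor (ENSMUSG00000033717, chr19:54044151-54048982, plus strand), was the lowest of the 9, at 0.601 to 6.04 CPM. The highest values belonged to the libraries that stood apart, 6.04 CPM in DRF ZT0 replicate 4 and 4.71 CPM in DRF ZT8 replicate 1. The other DRF ZT0 mice had 1.04, 1.45 and 1.42 CPM, and the other DRF ZT8 mice 2.73, 0.601 and 3.16. Under NRF, fed mice had 1.56 to 2.20 CPM with a median of 2.0, and fasted mice had 1.16 to 1.98 with a median of 1.39. The food effect was 0.35 ± 0.127 (adjusted p = 0.0312), and neither regimen passed alone (adjusted p = 0.234 under NRF and 0.098 under DRF). Without the pair of libraries that stood apart it was 0.28 (adjusted p = 0.0179). Over 11 alternatives its adjusted p ranged from 0.00409 to 0.244, and the call was lost without replicate 1, 2 or 4. The effect itself ranged from 0.23 without replicate 1 to 0.52 without replicate 3. The 2 genes closest to Adra2a over the 14 group means were Anpep (r = 0.88) and Igha (r = 0.88), an aminopeptidase and an immunoglobulin heavy chain. Without the libraries that stood apart, an alternative chosen after seeing the data, these values were 0.72 and 0.79.

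The natriuretic peptide receptors differed in mean level. Npr3, the clearance receptor that takes up natriuretic peptides (ENSMUSG00000022206, chr15:11839896-11907287, minus strand), had 77.9 to 622 CPM under NRF and 176 to 1021 CPM under DRF. Its group means under NRF from ZT0 to ZT24 were 369.5, 315, 278, 222, 205, 247 and 290.2 CPM. Under DRF they were 453, 347, 499, 436, 443, 440.1 and 511 CPM, higher at 7 of 7 time points by 1.1 to 2.16 times. The mean level, DRF minus NRF, was 0.72 ± 0.161 (adjusted p = 0.000615), and 0.81 without the libraries that stood apart. No single time point passed the threshold for Npr3 (adjusted p 0.0715 to 0.895), and only at ZT16 were the mice without overlap, at 166, 179, 218 and 259 CPM under NRF and 516, 453, 347 and 457 under DRF. The food effect was -0.33 ± 0.213 (adjusted p = 0.264, 95% interval -0.76 to 0.10), and no rhythm was called.

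Npr1, the guanylyl cyclase that answers atrial natriuretic peptide (ENSMUSG00000027931, chr3:90450591-90465866, minus strand), was the steadiest of the 9. It ranged from 67.3 to 97.8 CPM under NRF and from 51.4 to 87.6 under DRF. DRF means were lower at 7 of 7 time points, at 0.78 to 0.94 times those of NRF, and the mean level differed by -0.21 ± 0.041 (adjusted p = 8.99e-05). At ZT8 alone the difference was -0.37 ± 0.107 (adjusted p = 0.00918), with 58.4 and 51.4 CPM in DRF replicates 1 and 3 and 81.8 and 79.4 in the other 2 DRF mice. Without replicate 1 it was -0.27 (adjusted p = 0.116), and without the libraries that stood apart, which include DRF ZT8 replicate 1, -0.31 (adjusted p = 0.0377). Food effect (-0.05, 95% interval -0.16 to 0.06), light effect and rhythm of Npr1 did not pass.

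Mean level passed for 3 of 9 receptors, Npr3, Npr1 and Adrb1 (0.20 ± 0.070, adjusted p = 0.0294), where 30.5% of all genes passed, so the share is near the background. Without the 2 libraries that stood apart 6 of 9 passed, with Adra2a at -0.22, Ptger3 at 0.23 and Ffar2 at 0.35 (adjusted p = 0.0164, 0.0358 and 0.0499). The 30.5% belongs to the fit of all libraries, so it is no background for this count of 6. The call for Adrb1 was lost in 4 of 12 alternatives (without replicate 2, 3 or 4, or without ZT24), with adjusted p from 0.0877 to 0.184. Without ZT24 Ptger3 also passed (0.31, adjusted p = 0.0221, against 0.18 and 0.147 with all libraries).

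Markers of other cells moved with regimen as well. Of all 19737 genes tested for mean level, 2890 were lower and 3137 higher under DRF. Lower under DRF were 4 of 6 macrophage, 3 of 4 progenitor and 2 of 4 mesothelial markers. So were 1 of 4 endothelial markers (Tek, -0.15) and 1 of 3 neutrophil markers (Csf3r, -0.15). Higher under DRF were 1 neutrophil marker (S100a8, 0.54, adjusted p = 4.43e-08) and 1 of 3 brown fat markers (Cox7a1, 0.67, adjusted p = 2.95e-07), and none of the lymphocyte, epithelial or muscle markers passed. Summed progenitor markers (Pdgfra, Dpp4, Pi16 and Dcn) ranged from 1312 to 2832 CPM under NRF and from 1192 to 1992 under DRF, and summed macrophage markers from 297 to 522 and from 258 to 464 CPM. Of the adipocyte markers, Lep was higher (0.47) and Adipoq (-0.26) and Cfd (-1.33) were lower under DRF, and 4 of 7 did not pass. Their summed level ranged from 24642 to 43846 CPM under NRF (median 32548) and from 11748 to 37509 under DRF (median 28246). The lowest DRF sum was that of a fed mouse, and the lowest among fasted DRF mice was 22710 CPM. No marker was at 0 throughout a regimen. The part of these cells in the Npr3 and Npr1 results was not tested. With food, 1 of 7 adipocyte markers changed, Lep (1.70 ± 0.206, adjusted p = 5.21e-09), as did 1 of 4 progenitor markers (Pdgfra, -0.25) and 1 of 3 brown fat markers (Ucp1, -1.12, with summed brown fat markers of 5.38 to 93.8 CPM over all mice). None of the macrophage, neutrophil, lymphocyte, endothelial, mesothelial, epithelial or muscle markers passed for food. Neutrophil markers, which bear on Hcar2 and Ffar2 because neutrophils express both, were low, with summed levels of 3.80 to 5.93 CPM in fed NRF mice (median 4.79) and 4.64 to 8.10 CPM in fasted ones (median 5.65). Under DRF the medians were in the other order, 5.41 CPM in fed mice (4.40 to 8.93) and 4.85 in fasted ones (4.17 to 5.67). For light, 2 markers passed, the B cell gene Cd79a (-0.43, adjusted p = 0.0312), in the direction of Ffar2, and the progenitor marker Pi16 (0.52, adjusted p = 0.000328). The part of these cells in the food and light results was not tested.

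The 5 rhythmic receptors varied between the mice of NRF ZT0, a group chosen after its values were seen. There, at the end of the food period, replicate 1 had 641 CPM of Adrb3, 185 of Hcar1, 43.5 of Hcar2, 48.6 of Ffar2 and 208 of Ptger3. Replicate 3 of the same group had 131, 33.2, 11.9, 8.30 and 521 CPM. Replicate 1 thus had the highest values of the 4 mice for the first 4 genes and the lowest for Ptger3, and replicate 3 the reverse. The SD at NRF ZT0 was 217 CPM around a mean of 335 for Adrb3, against 50.7 around 304 at DRF ZT0. ZT24 is the same hour in other mice. No receptor passed the comparison of ZT24 with ZT0 (lowest adjusted p = 0.418), which 0.0811% of all genes passed under DRF and 0.243% under NRF.

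**Figure D4:**
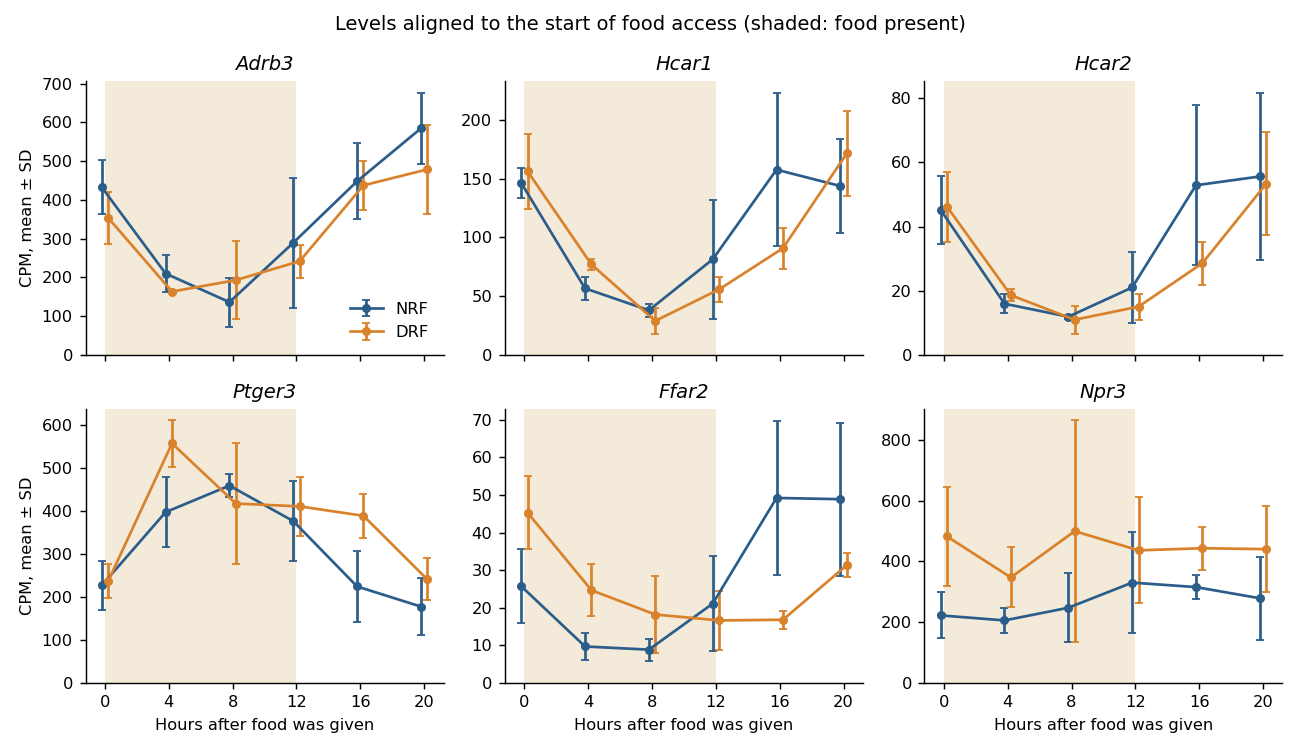
CPM (mean ± SD) of 6 receptors against hours after food was given, with food present in the shaded 12 h, NRF in blue and DRF in orange, 4 mice a point and 8 where ZT0 and ZT24 coincide. Adrb3 means under DRF are 0.778 to 1.42 times those of NRF, the regimens of Ffar2 lie apart at 4 h (24.6 under DRF against 9.67 CPM) and, in the opposite order, at 16 h (16.8 against 49.2 CPM), and the Npr3 means under DRF lie above those of NRF throughout.

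Several other receptors of fat tissue fell with food. Of 30 listed, 29 were in the table and 26 were tested, and of these 10 fell and 16 did not pass (38.5% called, where 32.5% of all genes were called and 15.8% fell), with a median food effect of -0.14 against -0.0034 over all genes. Adra1d, an alpha-1 adrenergic receptor, fell by 1.02 ± 0.104 on the log2 scale, from 7.04 CPM in fasted to 2.93 in fed NRF mice and from 5.87 to 2.50 under DRF. Adora2a, an adenosine receptor, fell by 0.85 ± 0.111, and Ffar4, a receptor for long-chain fatty acids, fell by 0.78 ± 0.113. Ptger2 and Ptger4, the Gs-coupled receptors for the ligand of Ptger3, were chosen after their values were seen. Both fell with food, by 0.66 ± 0.109 and 0.43 ± 0.165, from 3.49 to 1.71 and from 9.42 to 6.65 CPM under NRF.

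Downstream of the receptors, changes were divided. Of 36 genes of cAMP and cGMP signalling, all were tested, and 6 rose with food, 6 fell and 24 did not pass (33.3%, near the 32.5% of all genes). Pde3b, the phosphodiesterase through which insulin lowers cAMP in adipocytes, fell by 0.76 ± 0.0904 (adjusted p = 3.59e-09), from 369 to 255 CPM under NRF and from 469 to 249.5 under DRF. Adcy5, an adenylyl cyclase, fell by 0.61 ± 0.176, with means of 200.7 fasted and 80.3 CPM fed under NRF and 64.6 and 66.8 under DRF, and its light effect, the test of that difference, was -0.62 (adjusted p = 0.011). Gnai1, a Gi subunit, fell by 0.34 ± 0.080 (358 to 232 CPM under NRF, 319 to 318 under DRF, light effect -0.29, adjusted p = 0.00864). Adcy4 (0.32 ± 0.079), Atf3 (0.30 ± 0.118) and the protein kinase A subunit Prkar2a (0.28 ± 0.038) were the largest rises. For Atf3 the means were 7.78 fasted and 13.4 CPM fed under NRF but 9.21 and 8.23 under DRF (light effect 0.43, adjusted p = 0.00778), and Prkar2a also had a light effect (0.18, adjusted p = 0.000685).

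Of the genes that supply the ligands, 4 of 12 tested rose with food and 8 did not pass (33.3% called, near the 32.5% of all genes). Ldha and Slc16a1, which make lactate and carry it across the membrane, rose by 0.32 ± 0.091 and 0.56 ± 0.070, while the lactate receptor Hcar1 fell. Ptges, a prostaglandin E2 synthase, rose by 0.85 ± 0.194 (adjusted p = 0.000441), from 134 to 293 CPM under NRF and from 195 to 260.2 under DRF, as Ptger3 did. The natriuretic peptide gene Nppa was at 0.13 CPM on average, and Nppb and Nppc were under the filter.

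**Figure D5:**
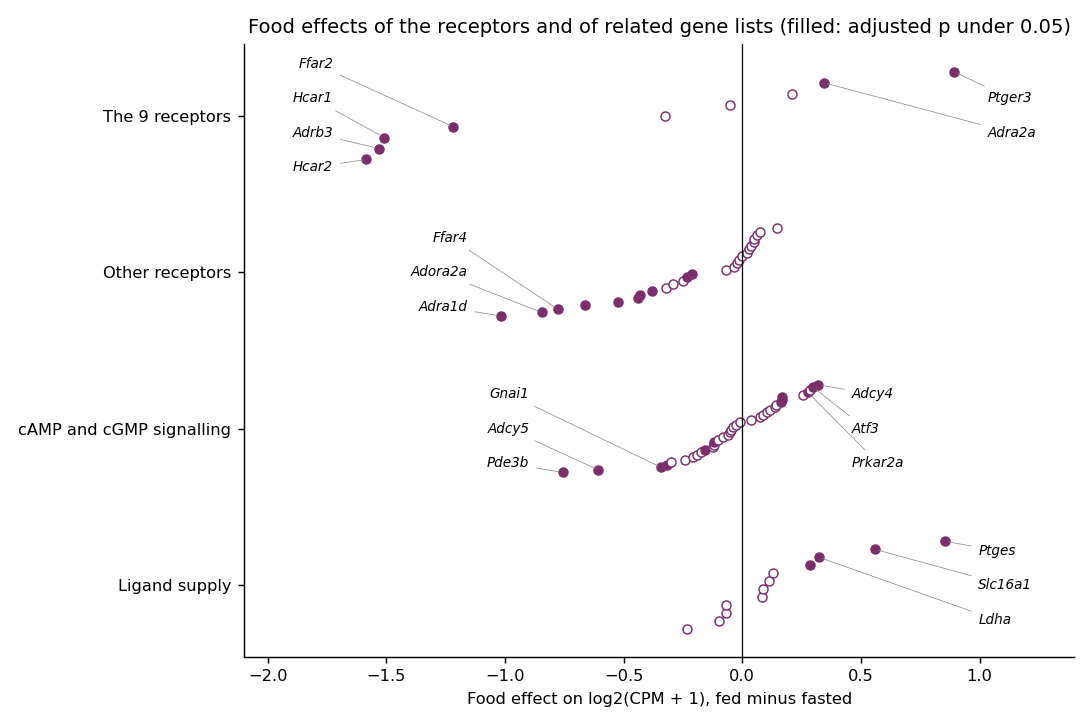
Food effect on log2(CPM + 1) of the 9 receptors and of the genes of 3 related lists, 1 point a gene; filled points have an adjusted p under 0.05 in limma, and the named ones are the receptors past the threshold and up to 3 rises and 3 falls a list. Ptges lies at 0.85 and Ptger3 at 0.89.

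Across 14291 genes with a mean of at least 1 CPM, likeness to each receptor was measured by Pearson r over the 14 group means. The closest were Bivm (0.96) and Ppm1k (0.96) for Adrb3, Hcar2 (0.98) and Herpud2 (0.96) for Hcar1, Gm6969 (0.98) and Hcar1 (0.98) for Hcar2, and Plagl1 (0.96) and 1700056E22Rik (0.95) for Ffar2. Ptger3 was closest to Mvd (0.98), an enzyme of cholesterol synthesis, and Farsa (0.98). Spata2 (0.90) and Ptrhd1 (0.90) were closest to Adrb1, Rhou (0.89) and Gm36161 (0.87) to Npr1, and Lbp (0.92) and Col5a3 (0.92) to Npr3. These values describe shared profiles of group means and carry no test.

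Libraries of this kit do not keep the strand, and 3 receptors overlap a gene on the other strand. Adrb3 shares 839 exon bases with the antisense gene Gm45470, which had 21.5 CPM on average and a food effect of -1.10 (adjusted p = 4.85e-08), so reads of the pair cannot be told apart there. Npr3 shares 321 exon bases with Gm5144, which had 1.59 CPM and, like Npr3, a higher mean level under DRF (0.55, adjusted p = 1.76e-07), and Npr1 shares 559 with Gm16048, at 0.092 CPM.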

How the data were processed

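RNA-seq of VAT from 56 mice was used, 4 per regimen and time point. The authors aligned reads and counted them per gene, with HISAT2 2.0.5, featureCounts 1.5.0-p3 and mm10 named in the submitters' processing notes, and how reads matching several genes were treated is not given in the sources used here. The deposited values, named TPM by the authors, behaved as a score: log2(CPM + 1) divided by exon length and rescaled per library. Whole reads were recovered from their steps, and 99.9996% of 1215268 values tested (up to 10000 reads) came within 0.02 of a whole read. For 986 genes the exon length was inferred from the values. These include Adrb1 and Adra2a (2491 and 3801 bases, against 3382 and 4832 in GENCODE M21). A wrong length would multiply their log2(CPM + 1) values and differences by a constant factor, so CPM and fold sizes would change. CPM is per effective library size of the authors (31.8 to 47.3 M). No column belonged to other samples.

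Genes with a mean of at least 0.1 CPM (19737) were tested on log2(CPM + 1) with limma 3.58.1 in R 4.3.3, as 14 group means with a trended prior, with Benjamini-Hochberg adjustment over all genes and a threshold of 0.05. The deposited unit is not counts, and count models were not run on the recovered reads. For 24-h rhythms, the p-values of JTK_CYCLE and of a Lomb-Scargle periodogram were joined (Fisher), and peaks fitted by a cosine per regimen in Python 3.11.15 with scipy 1.17.1. These p-values combine tests of the same data, which are not independent. Simulated data tested read recovery, limma for mean level and food effect, the rhythm test and the interval of the phase shift. The simulated shifts were smaller than those fitted for Adrb3, Hcar1, Hcar2 and Ptger3. The other tests, such as rhythm difference, 12-h component and amplitude difference, were not run on simulated data. Symbols came from GENCODE M21 for 25906 of the 25939 genes.

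The receptors and the lists were chosen with earlier results of these data known. Named genes are the 9 receptors, up to 3 rises and 3 falls by food per list, and the 2 genes most like each receptor. Markers of cell types, the natriuretic peptide genes, Ptger2 and Ptger4 are named outside this rule, after their values were seen. A pair of genes of these lists is not reported here and was left out of the lists' counts, medians and plot. Alternatives were median-ratio scaling, the deposited values, a replicate block, leaving out each replicate number, the libraries that stood apart or ZT24, other filters and pseudocount, and other rhythm tests. Intervals cover the spread between these mice only.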

Additional observations from a re-analysis of the deposited data

Results flagged for a closer look

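Among the 4 mice of a group, 10 of 126 receptor groups had a mouse far from the other 3 by Dixon's test, where chance gives about 1 in 20 groups, or 6.3. These were Adrb3 at NRF ZT24 (413 CPM in replicate 1), Adra2a at DRF ZT0 (6.04 CPM in replicate 4, a library that stood apart), Hcar1 at NRF ZT20 (29.3 CPM in replicate 2) and Ffar2 at DRF ZT24 (37.2 CPM in replicate 2). For Npr1 they were DRF ZT20 (87.6 CPM in replicate 1), NRF ZT8 (71.5 CPM in replicate 3) and NRF ZT24 (92.8 CPM in replicate 1). For Npr3 they were DRF ZT12 (176 CPM in replicate 4), DRF ZT24 (775 CPM in replicate 3) and NRF ZT20 (77.9 CPM in replicate 1).

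The fed minus fasted difference of Ffar2 was not the same in the regimens by the test of the difference itself, a light effect of -1.01 on log2(CPM + 1).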

How the results depend on the processing

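Of 2063 single receptor values recomputed, 1998 kept their side of the threshold, 39 lost a call and 26 gained one. Of 1450 with a sign, 40 had another sign than the reported value, and 0 of these were called. The food calls of Adrb3, Hcar1, Hcar2, Ffar2 and Ptger3, the light call of Ffar2 and the mean-level calls of Npr1 and Npr3 held in all 11 or 12 alternatives run for each. Without the libraries that stood apart, the receptors called went from 3 to 6 for mean level, from 1 to 2 at ZT0, from 1 to 2 at ZT16 and from 3 to 5 at ZT24. With a mean CPM of at least 1 they were 2 at ZT0, and without ZT24 they were 0 for the 12-h component under DRF. Leaving out each replicate number gave 0 to 3 receptors at ZT0, 3 to 6 at ZT4, 2 to 3 at ZT12, 0 to 1 at ZT16 and 0 to 0 for the 12-h component under DRF. With the replicate block they were 2 at ZT0 and 2 at ZT16, the added calls being Ptger3 (-0.66, adjusted p = 0.0443) and Adrb1 (-0.49, adjusted p = 0.0476). Fed minus fasted under NRF also passed for Adrb1 with that block (0.31, adjusted p = 0.0457, against 0.0652) and without replicate 2 (0.38, adjusted p = 0.0493). Deviations of same-numbered libraries correlated by 0.039 on average (-0.607 to 0.543), against -0.012 for libraries with other numbers. Of 56 libraries, 17 were closest to one of their own number. Whether a replicate number marks a batch was not tested. Why these counts moved was not tested. Among all genes, ZT24 minus ZT0 called 16 genes under DRF (8 on the deposited values, 4 without the libraries that stood apart) and 48 under NRF (28 and 90), the 12-h component under NRF 9 (4, 35, and 16 at a mean CPM of at least 1), and the 24-h rhythm under DRF 4162 (7087 by the limma cosine test). Leaving out each replicate number, ZT24 minus ZT0 called 2 to 52 genes under DRF and 0 to 259 under NRF, the 12-h component under DRF 48 to 108 (against 374) and the 24-h rhythm under DRF 2182 to 2774. Without replicate 2, DRF minus NRF called 1118 genes at ZT0 (against 2906) and 1237 at ZT24 (against 3195), and the light effect 1233 (against 3390). Of genes rhythmic under both regimens, an amplitude difference was called for 87 of 2650, for 41 of 2284 on the deposited values, 137 of 3103 without the libraries that stood apart and 51 of 1943 without ZT24. Without single replicate numbers it was called for 12 of 1326 to 43 of 1632. There a phase shift was called for 1242 of 1281 to 1581 of 1632 (against 2561 of 2650). At ZT16, leaving out each replicate number called 1537 to 1731 of all genes (against 2771). The shares of all genes printed beside the receptors are those of the main fit and move with these counts. They are no background for the receptor counts of other settings. Median-ratio scaling moved the median of all genes by at most 0.0165. Adrb1 and Adra2a rest on 56 to 247 and 22 to 247 reads per library, and which differences this depth could show was not tested.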
